A study of Mus musculus with 24 samples.

Results

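The regions described here are the accessible chromatin sites around 7 genes that classically respond to the aryl hydrocarbon receptor (AhR): Ahrr, Tiparp, Cyp1a1, Cyp1a2, Cyp1b1, Nqo1 and Aldh3a1. A consensus peak belonged to a gene when it overlapped the gene body or the 20 kb on either side of it (GENCODE vM21, mm10), and a peak in reach of more than 1 gene went to the nearest. This gave 62 of 184158 peaks: 19 at Ahrr, 18 at Tiparp, 9 at Nqo1, 6 at Aldh3a1, 5 at Cyp1a1, 4 at Cyp1b1 and 1 at Cyp1a2. Of these, 58 had enough counts to be tested, and the other 4 (2 at Nqo1, 1 at Ahrr and 1 at Tiparp) are described by their levels only.

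Accessibility was measured by ATAC-seq, which reads out where a transposase can insert into DNA. The cells were macrophages grown from bone marrow (BMDMs) of C57/B6/J mice, called wildtype (WT) here, and of AhR-KO mice, which carry the Ahr tm1Bra allele in the germline and so in every cell type of the culture. The study's name for the AhR-KO strain also shows descent from a mouse strain other than that of the WT. Strain differences, above all near Ahr, cannot be told apart from the genotype here. All cultures grew with 10% serum, TGF-β at 2 ng/ml and GM-CSF at 10 ng/ml, a mixture meant to make marrow cells resemble alveolar macrophages. The 4 groups of 6 libraries were WT unstimulated, WT LPS, AhR-KO unstimulated and AhR-KO LPS. LPS, a bacterial cell wall component, was given at 97 EU/ml on day 6 for 24 h, followed by 10 min of the calcium ionophore A23187 at 5 µM. That whole text stands with every library in the labels, which do not state apart what unstimulated cultures received. The labels do not say which libraries came from which animals, so p-values measure the spread between these libraries.

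AhR waits in the cytoplasm in a complex with HSP90 until a small molecule, such as a dioxin, a plant indole or a tryptophan metabolite, binds it. It then enters the nucleus, pairs with ARNT and binds the core sequence GCGTG of the xenobiotic response element. The genes it induces include enzymes that oxidise its ligands (CYP1A1, CYP1A2, CYP1B1), a quinone reductase (NQO1) and an aldehyde dehydrogenase (ALDH3A1). They also include inhibitors of AhR itself (AHRR, which competes for ARNT, and TIPARP, which ADP-ribosylates AhR).

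The sequences below are the 150-base stretches with most core sites in the peaks that were less accessible in AhR-KO in both treatments and held a core site. An Ahrr intron peak whose genotype effect differed with LPS and the Cyp1a1 promoter-side peak, added after their values were seen, follow for comparison. All are plus-strand mm10 sequence, 5′ to 3′, from the RefSeq copy of GRCm38.p6. Capitals mark GCGTG or its reverse complement CACGC, and sites that overlap run together. Ahrr and Cyp1b1 are transcribed from the minus strand, so that CACGC reads GCGTG in their direction.
Ahrr TSS peak, chr13:74292321-74292470: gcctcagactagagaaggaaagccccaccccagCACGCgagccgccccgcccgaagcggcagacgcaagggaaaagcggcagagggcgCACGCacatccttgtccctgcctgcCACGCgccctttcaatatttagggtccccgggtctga
Ahrr distal intron peak, chr13:74245689-74245838: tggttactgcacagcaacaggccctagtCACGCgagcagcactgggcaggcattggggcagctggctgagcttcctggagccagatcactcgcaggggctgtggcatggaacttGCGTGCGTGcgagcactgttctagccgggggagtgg
Ahrr LPS-responsive intron peak, chr13:74274090-74274239: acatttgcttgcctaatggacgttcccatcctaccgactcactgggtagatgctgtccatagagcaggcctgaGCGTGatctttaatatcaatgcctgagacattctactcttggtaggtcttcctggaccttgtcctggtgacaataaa
Cyp1b1 promoter-side peak, chr17:79715635-79715784: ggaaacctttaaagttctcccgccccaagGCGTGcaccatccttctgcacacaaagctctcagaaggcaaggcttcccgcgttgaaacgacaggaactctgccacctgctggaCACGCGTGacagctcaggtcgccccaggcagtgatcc
Cyp1b1 distal upstream peak, chr17:79728628-79728777: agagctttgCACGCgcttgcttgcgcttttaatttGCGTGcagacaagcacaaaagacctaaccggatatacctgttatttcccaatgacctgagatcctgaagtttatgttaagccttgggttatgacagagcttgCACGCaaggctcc
Ahrr central intron peak, chr13:74259975-74260124: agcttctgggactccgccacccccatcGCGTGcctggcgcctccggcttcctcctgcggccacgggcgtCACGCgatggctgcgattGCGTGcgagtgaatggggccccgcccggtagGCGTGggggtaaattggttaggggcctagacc
Cyp1a1 promoter-side peak, chr9:57696329-57696478: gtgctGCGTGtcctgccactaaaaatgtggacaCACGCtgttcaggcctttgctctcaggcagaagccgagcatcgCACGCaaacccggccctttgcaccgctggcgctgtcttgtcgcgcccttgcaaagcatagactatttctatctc
The Ahrr TSS stretch runs from 139 bases before the upstream of its annotated transcription start sites (TSS, 74292331) to 10 bases after it and holds 3 core sites. The Cyp1b1 stretch lies 574 to 723 bases before the TSS and holds 3 of the 9 core sites of its peak.

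Chromatin at Ahrr and Cyp1b1 was less accessible in AhR-KO, whereas few sites of the other 5 genes were. Peaks were called differentially accessible regions (DARs) at a fold change of at least 1.5 and an adjusted p no higher than 0.05 in edgeR's quasi-likelihood test. Without LPS, 17 of the 58 peaks (29.3%) were DARs between the genotypes, 14 lower in AhR-KO and 3 higher, beside 22.6% of all peaks tested. With LPS, 24 (41.4%) were DARs, 18 lower and 6 higher, beside 26.5%. Every AhR-KO library lay below every WT library at 11 of the 58 peaks without and 13 with LPS, which held for 11.3% and 8.96% of all peaks, and above at 5 and 5, which held for 9.78% and 10.6%. The share of lower DARs was 24.1% without and 31% with LPS, against 12.6% and 13.1% of all peaks, and that of higher DARs was 5.17% and 10.3%, against 9.95% and 13.4%. Of the 58, 13 were lower DARs in both treatments, where 6.95% of all peaks were, and these were 10 peaks of Ahrr and 3 of Cyp1b1. A further 1, an Ahrr peak, was a higher DAR in both, where 5.08% of all peaks were. Several of the 13 had a broad peak only in WT libraries, and the higher one only in AhR-KO LPS libraries. Such sites entered the consensus peaks through the group where they were high, so their direction was partly fixed beforehand. With Ahrr left out, 4 of 40 peaks (10.0%) were lower without LPS and 5 of 40 (12.5%) with it. The median log2 fold change over the 58 peaks was -0.05 without and -0.14 with LPS, beside -0.02 and 0.02 over all peaks. The median thus stayed close to that of all peaks while single loci stood far below it.

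**Figure D1:**
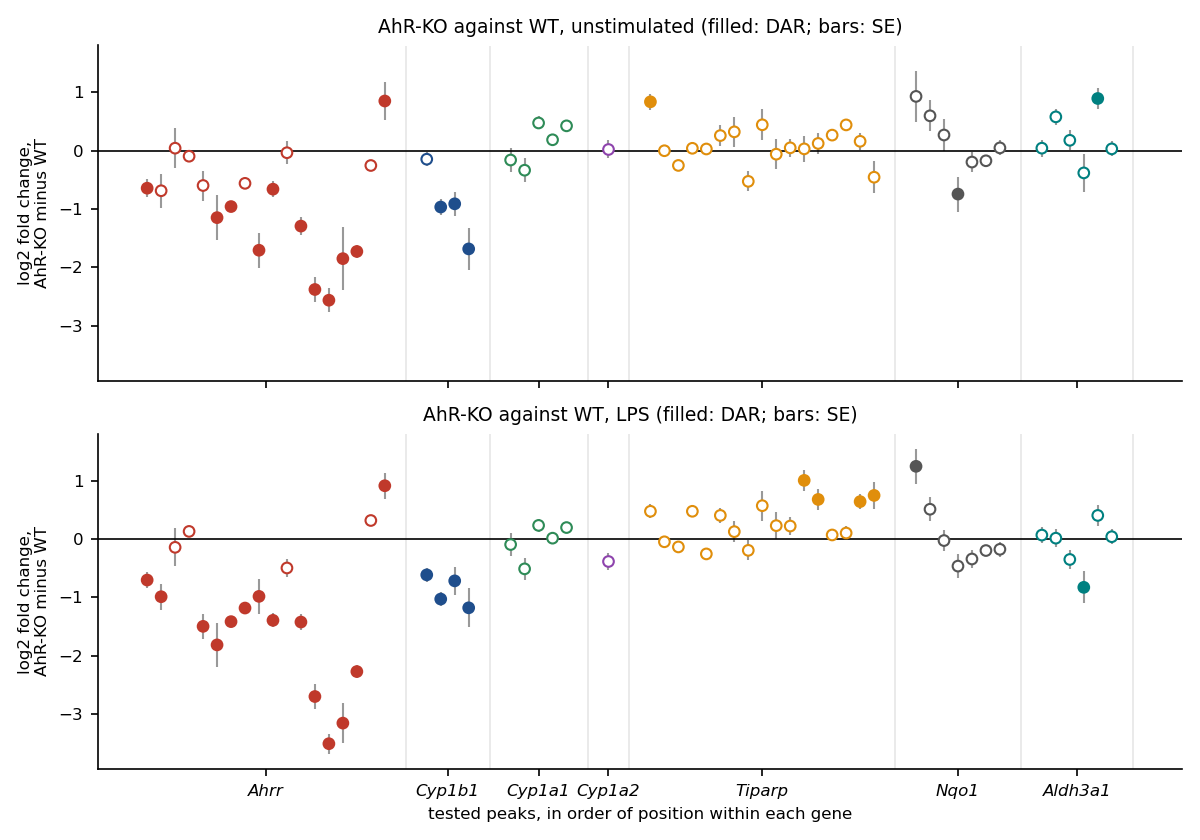
Log2 fold change of AhR-KO against WT (vertical axis, with standard error) at the 58 tested peaks, ordered by position within each gene, without LPS (top) and with LPS (bottom). Filled points are DARs, and the lowest values, down to -2.56 without and -3.51 with LPS, are those of Ahrr.

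The cultures carried macrophage chromatin. All 8 macrophage markers (such as Csf1r, Cd68 and Spi1) and all 4 alveolar macrophage markers (Siglecf, Pparg, Car4 and Chil3) had a peak over a TSS, whereas the 9 neutrophil, T cell and B cell markers had none. Summed CPM per kb of peak over the macrophage list ranged from 134.5 to 152.6 in unstimulated WT and from 155.7 to 214.4 in unstimulated AhR-KO libraries, and the alveolar list from 45.7 to 52.7 and from 56.5 to 69.2, with no overlap of the genotypes. With LPS these ranges overlapped (124.9 to 139.4 and 117.9 to 164.3 for the macrophage list, 30.9 to 37.1 and 32.7 to 39.8 for the alveolar list). Single markers of the 2 lists differed without LPS. Itgam, Mertk, Siglecf, Car4 and 1 Spi1 TSS peak were higher in every AhR-KO library. The others overlapped, such as Adgre1 (7.38 to 9.79 in WT and 8.16 to 9.92 in AhR-KO) and Chil3 (5.77 to 8.42 and 5.68 to 7.22). Of the 3 mast cell markers only Kit had a TSS peak, at 3.78 to 5.47 CPM per kb (WT) and 1.68 to 2.24 (AhR-KO) without LPS, and at 4.63 to 6.71 and 2.31 to 2.96 with it. The dendritic cell list (Flt3, Zbtb46, Ccr7) overlapped between genotypes without LPS (14.6 to 20.2 in WT and 14.4 to 16.95 in AhR-KO) and with it (19.05 to 35.05 and 14.3 to 19.9), but single markers moved apart. Flt3 was lower in every AhR-KO library in both treatments (4.61 to 9.39 against 2.30 to 3.55 CPM per kb without LPS, 6.31 to 11.8 against 2.91 to 3.93 with it), whereas 1 of the 2 Zbtb46 TSS peaks was higher in every AhR-KO library (0.470 to 1.12 against 1.17 to 1.89, and 0.780 to 1.09 against 2.25 to 3.25). For fibroblasts 2 of 3 markers had a TSS peak, with summed ranges of 17.1 to 21.7 (WT) and 17 to 21.2 (AhR-KO) without LPS and of 13.7 to 19.9 and 11.3 to 14.02 with it. For epithelium it was also 2 of 3, with 8.28 to 12.6 and 7.73 to 8.96 without LPS and 7.93 to 8.93 and 6.13 to 8.52 with it. The part of these lists in the results below was not tested, and a smaller share of cells with an open site cannot be told apart from weaker opening in every cell. Libraries held 8.54 to 34.6 M counts in peaks. The peak over the Ahr TSS averaged 22.5 ± 1.67 CPM (counts per M counts in peaks; SD, n = 6) in WT and, also without LPS, 13.2 ± 1.2 in AhR-KO, a log2 fold change of -0.78 ± 0.08 (SE, adjusted p = 2.98e-10). With LPS it averaged 20.2 ± 1.19 and 14.7 ± 1.84, and the libraries of the genotypes did not overlap in either treatment.

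Ahrr, which encodes the AhR repressor, was less accessible along most of its body in AhR-KO. Of its 18 tested peaks, 10 were lower DARs without and 13 with LPS, and 1 was a higher DAR in each treatment. Summed over the 19 peaks, unstimulated accessibility was 146.0 ± 7.70 CPM in WT and 98.8 ± 3.10 in AhR-KO, and 155.3 ± 12.3 and 89.3 ± 7.31 with LPS. These sums include peaks in the bodies of the neighbours Exoc3 and Pdcd6. Among them, the peak over the Exoc3 TSS averaged 39.3 CPM in WT and 36.8 in AhR-KO unstimulated, and 34.2 and 37.4 with LPS. The peak over the Ahrr TSS (chr13:74291782-74292673, 892 bp) ranged from 9.52 to 13.3 CPM around a median of 10.6 in WT unstimulated, whereas AhR-KO unstimulated ranged from 2.60 to 4.13 around 3.23. In WT LPS it ranged from 10.1 to 12.8 around 11.02, and in AhR-KO LPS from 2.04 to 2.51 around 2.38. Every AhR-KO library thus lay below every WT library, by 3.31-fold without LPS (log2 fold change -1.73 ± 0.11 SE, adjusted p = 6.91e-15) and by 4.83-fold with it (-2.27 ± 0.11, adjusted p = 5.72e-18). LPS made no measurable difference to this peak in WT (0.05 ± 0.09, adjusted p = 0.693), while in AhR-KO it was 1.42-fold lower with LPS (-0.50 ± 0.12, adjusted p = 0.00031), short of the fold threshold. The difference between the genotype effects was -0.55 ± 0.15 (adjusted p = 0.011), also short of that threshold.

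The most strongly affected site lay inside the first part of the gene, 2316 bp after the TSS (chr13:74288783-74289981, intron). It ranged from 2.16 to 3.37 CPM (median 2.89) in WT unstimulated and from 4.82 to 8.62 (6.54) in WT LPS. In AhR-KO it ranged from 0.315 to 0.649 (0.482) without LPS and from 0.430 to 0.733 (0.598) with it, on 8 to 18 counts per library. The genotypes did not overlap in either treatment, and LPS raised this site in WT (1.23 ± 0.15, adjusted p = 2.78e-09) and not measurably in AhR-KO (0.28 ± 0.25, adjusted p = 0.324). AhR-KO was 5.90-fold lower than WT without LPS (-2.56 ± 0.20, adjusted p = 2.73e-12) and 11.4-fold lower with LPS (-3.51 ± 0.17, adjusted p = 3.79e-17). The LPS effects of the genotypes differed by -0.95 ± 0.30 (adjusted p = 0.0258), and without AhR-KO unstimulated replicate 2 that difference was -0.86 with an adjusted p of 0.06. In the separate peak lists of each library, a broad peak overlapped this site in 6 of 6 WT LPS libraries, with fold enrichments of 2.24 to 3.09, and in 0 of 6 in each of the other 3 groups. The site thus entered the consensus peaks through the group where it was highest.

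**Figure D2:**
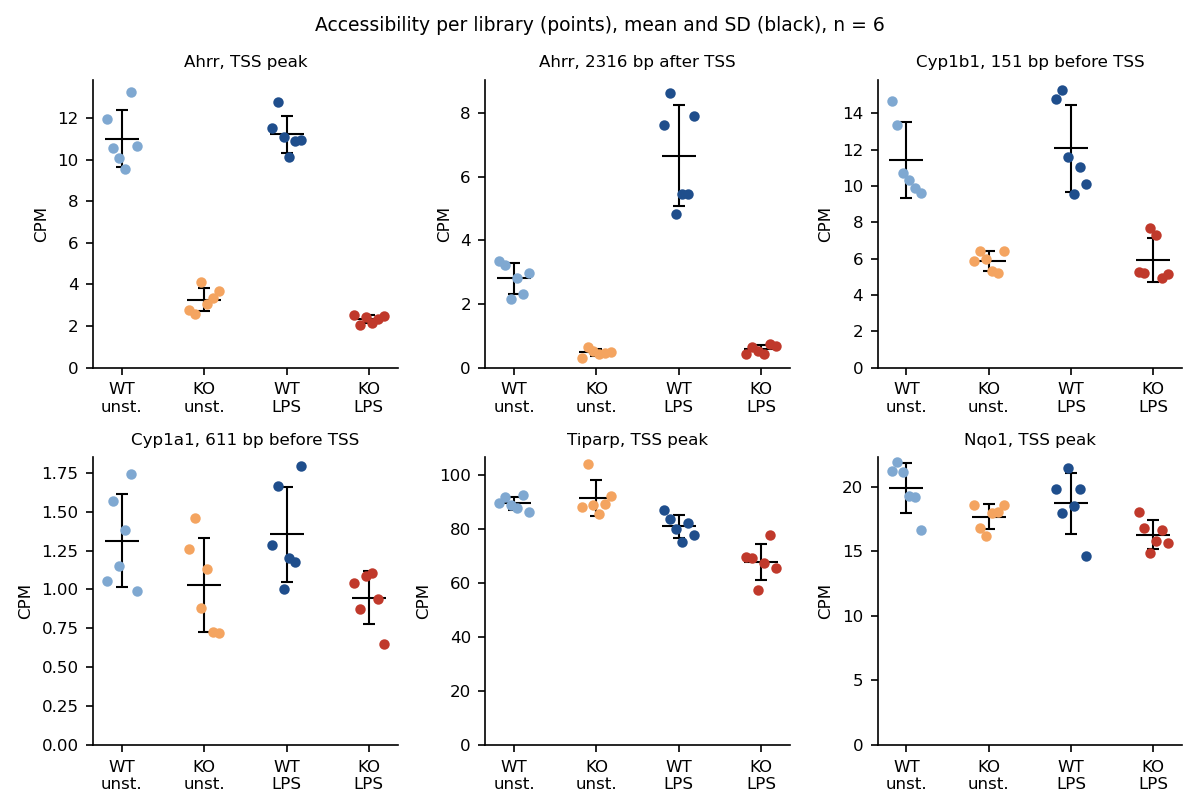
CPM in each of the 24 libraries (points), with group mean and SD (n = 6), at 6 sites. AhR-KO libraries lie below all WT libraries at both Ahrr sites and at the Cyp1b1 site, and the genotypes overlap in both treatments at the Cyp1a1, Nqo1 and Tiparp sites.

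Narrow sites on both flanks of that intron peak were also lower in AhR-KO. At 4814 bp after the TSS (chr13:74287293-74287483) WT ranged from 1.16 to 2.31 CPM without and from 1.21 to 1.96 with LPS, and AhR-KO from 0.274 to 0.381 and from 0.158 to 0.316. AhR-KO was 5.20-fold lower without LPS (-2.38 ± 0.21, adjusted p = 3.07e-11) and 6.50-fold lower with it (-2.70 ± 0.21, adjusted p = 1.43e-12). At 1431 bp after the TSS (chr13:74290711-74290866) AhR-KO libraries held only 0 to 5 counts, against 2 to 11 in WT unstimulated and 23 to 60 in WT LPS. This site rose with LPS in WT (2.10 ± 0.33, adjusted p = 7.08e-07), and AhR-KO was lower without LPS (-1.85 ± 0.54, adjusted p = 0.00592) and with it (-3.16 ± 0.35, adjusted p = 3.19e-09). A broad peak overlapped the site at 4814 bp in 1 of 6 WT unstimulated libraries only. At 1431 bp it was 1 of 6 WT LPS libraries only, so both sites entered the consensus peaks through WT. The intron peak and both flanking sites held no core motif.

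Farther into the gene, a peak 9288 bp from the TSS (chr13:74281969-74283009) ranged from 5.70 to 8.59 CPM in WT unstimulated, 2.54 to 4.43 in AhR-KO unstimulated, 11.2 to 15.4 in WT LPS and 2.60 to 6.18 in AhR-KO LPS. The genotypes did not overlap in either treatment. The genotype effects were -1.29 ± 0.15 (adjusted p = 2.07e-08) and -1.42 ± 0.13 (adjusted p = 3.17e-10), and LPS made no measurable difference to them, with an interaction of -0.13 ± 0.20 (adjusted p = 0.712). The peak at 17513 bp (chr13:74272453-74274784, 2332 bp) answered LPS most clearly in WT, from 6.15 to 7.91 CPM without to 17.02 to 22.5 with LPS (1.55 ± 0.12, adjusted p = 8.5e-13). In AhR-KO it went from 3.46 to 5.43 CPM to 5.54 to 9.73 (0.82 ± 0.13, adjusted p = 2.22e-06). AhR-KO was lower in both treatments, by 1.58-fold (-0.66 ± 0.14, adjusted p = 0.000257) and 2.63-fold (-1.40 ± 0.12, adjusted p = 4.52e-11), and the LPS effects differed by -0.74 ± 0.18 (adjusted p = 0.00549). LPS thus opened this intron site in both genotypes, and more so in WT.

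The central intron peak, 31205 bp from the TSS (chr13:74259553-74261092), held the most CPM of the Ahrr peaks in WT. It ranged from 42.5 to 49.1 CPM (median 44.7) in WT unstimulated, 29.3 to 32.9 (30.7) in AhR-KO unstimulated, 29.8 to 43.3 (36.9) in WT LPS and 13.9 to 18.98 (15.9) in AhR-KO LPS. The genotypes did not overlap in either treatment. AhR-KO was 1.47-fold lower without LPS (-0.56 ± 0.07, adjusted p = 7.78e-08), just short of a DAR, and 2.27-fold lower with LPS (-1.18 ± 0.07, adjusted p = 1.3e-14). LPS lowered the site in AhR-KO (-0.93 ± 0.07, adjusted p = 1.27e-13) and by less in WT (-0.30 ± 0.07, adjusted p = 0.00029), with an interaction of -0.63 ± 0.10 (adjusted p = 5.99e-05). That interaction was -0.58 without WT LPS replicate 1, short of the fold threshold at an adjusted p of 0.000136. The distal intron peak at 44046 bp (chr13:74245376-74248251) fell in the same order, from 15.7 to 19.3 CPM in WT unstimulated and 11.9 to 14.6 in WT LPS to 7.90 to 10.5 in AhR-KO unstimulated and 4.03 to 5.46 in AhR-KO LPS. Its genotype effects were -0.96 ± 0.08 (adjusted p = 2.03e-11) and -1.42 ± 0.09 (adjusted p = 8.52e-15), with an interaction of -0.46 ± 0.12 (adjusted p = 0.00755).

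The other called Ahrr sites were weak. A site 25700 bp into the gene (chr13:74266271-74266597) was lower in AhR-KO, with log2 fold changes of -1.71 ± 0.30 (adjusted p = 1.84e-05) without LPS and -0.98 ± 0.30 with it (adjusted p = 0.00743). A broad peak was called over it in 2 of 6 WT unstimulated libraries only. A site at 53815 bp (chr13:74238290-74238482), with at most 19 counts per library, was lower by -1.15 ± 0.38 (adjusted p = 0.0152) and by -1.82 ± 0.38 (adjusted p = 0.000187), and its call without LPS was lost without WT unstimulated replicate 6 (-0.93, adjusted p = 0.07). This site had a broad peak in 1 of 6 WT LPS libraries only. Past the gene end, in the body of the neighbour Exoc3 (chr13:74192561-74193084), log2 fold changes were -0.64 ± 0.15 (adjusted p = 0.000741) and -0.70 ± 0.14 (adjusted p = 5.91e-05), and the former fell short of the fold threshold without AhR-KO unstimulated replicate 6 (-0.58, adjusted p = 0.00347). The lone Ahrr peak that was higher in AhR-KO lay 18475 bp before the TSS in the body of Pdcd6 (chr13:74310806-74311130), at 0.85 ± 0.33 (adjusted p = 0.0339) and 0.91 ± 0.22 (adjusted p = 0.000985). Its call without LPS, on 1 to 12 counts, was lost without WT unstimulated replicate 2, 3 or 5 or AhR-KO unstimulated replicate 2 or 6 (log2 0.75 to 0.82, adjusted p 0.0567 to 0.0861). That peak was called as a broad peak in 2 of 6 AhR-KO LPS libraries only. The peak over the TSS of Exoc3 (chr13:74208041-74209280), 83017 bp from the Ahrr TSS, averaged 34.2 to 39.3 CPM in the 4 groups, with genotype effects of -0.09 ± 0.06 (adjusted p = 0.239) and 0.13 ± 0.06 (adjusted p = 0.0744). Beyond that promoter a weak site (chr13:74198564-74199124) was also lower with LPS (-0.99 ± 0.22, adjusted p = 0.00034), as was a site in the last part of the Ahrr body (chr13:74226310-74226872, -1.50 ± 0.22, adjusted p = 7.7e-07). The former had a broad peak in 4 of 6 and the latter in 2 of 6 WT LPS libraries only. Both thus entered the consensus peaks through the group where they were highest, so their direction was partly fixed beforehand. Upstream of the TSS, a peak at 8779 bp (chr13:74301110-74302868) was slightly lower in AhR-KO without LPS (-0.25 ± 0.09, adjusted p = 0.027) and slightly higher with it (0.32 ± 0.08, adjusted p = 0.00237), with an interaction of 0.57 ± 0.13 (adjusted p = 0.00182). These 3 peaks fell outside the rule for named peaks and were picked after their values were seen.

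**Figure D3:**
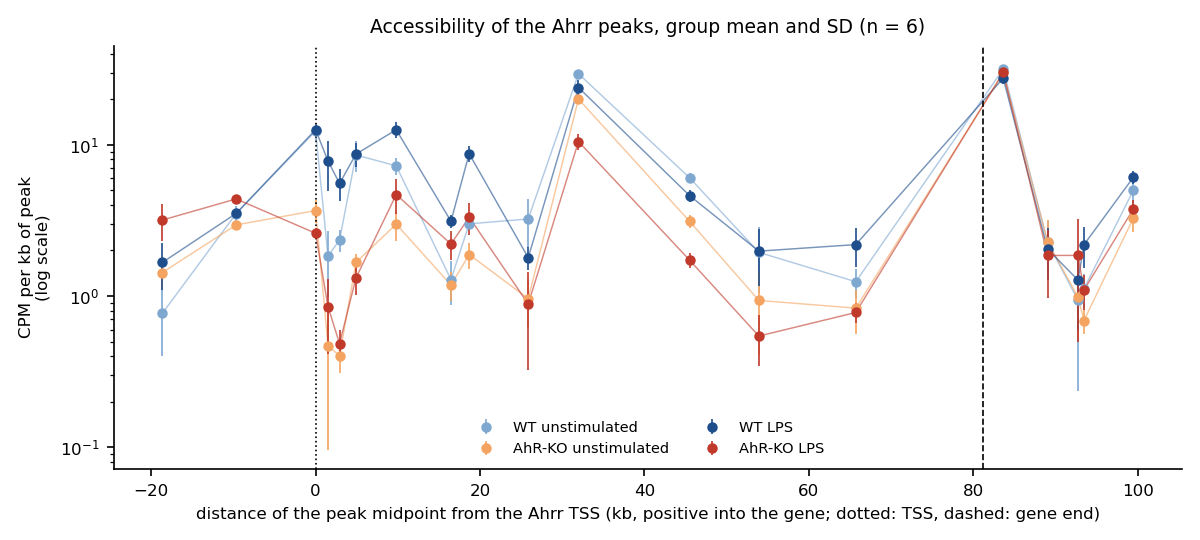
Group means of CPM per kb of peak (log scale, with SD, n = 6) of the 19 Ahrr peaks against the distance of the peak midpoint from the TSS, positive into the gene. AhR-KO points lie below WT points of the same treatment at the TSS and at the 11 other peaks within the gene, and the groups come close to each other at the Exoc3 promoter past the gene end.

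Tiparp, which encodes a mono-ADP-ribosyltransferase that acts on AhR, had no lower DAR of genotype. The peak over its TSS (chr3:65527637-65529896, 2260 bp) was the most accessible of all member peaks and ranged from 86.3 to 92.7 CPM (median 89.2) in WT unstimulated, and AhR-KO unstimulated from 85.5 to 104.2 (89.1). In WT LPS it ranged from 75.1 to 87.05 (81.1) and in AhR-KO LPS from 57.4 to 77.6 (68.3). No difference between genotypes was detected without LPS (0.03 ± 0.05, adjusted p = 0.697), and with LPS AhR-KO was lower by less than the fold threshold (-0.26 ± 0.05, adjusted p = 0.000211). Of 17 tested Tiparp peaks, 0 were lower DARs in either treatment by edgeR or by DESeq2, while 2 without LPS and 1 with LPS were lower at an unadjusted p under 0.05. Among all peaks, 12.6% without and 13.1% with LPS were lower DARs by edgeR. The DARs were higher in AhR-KO. These were 1 peak without LPS, 17564 bp upstream (chr3:65509983-65510846, WT 2.21 ± 0.388 CPM, AhR-KO 3.94 ± 0.570 CPM, 0.84 ± 0.14, adjusted p = 8.47e-06), and 4 with LPS.

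Of those 4, the intron peak at 16078 bp (chr3:65544538-65545711) was called as a broad peak in all libraries of a single group and in none of the others. It ranged from 0.828 to 1.25 CPM in WT unstimulated, 0.629 to 1.64 in AhR-KO unstimulated, 1.17 to 1.77 in WT LPS and 1.83 to 3.34 in AhR-KO LPS. The broad peak was called in 6 of 6 AhR-KO LPS libraries and in 0 of 6 in each other group. The site thus entered the consensus peaks through the group where it was highest, so its direction was partly fixed beforehand. At this site AhR-KO was 2.01-fold higher than WT with LPS (1.005 ± 0.17, adjusted p = 1.27e-05). LPS raised it in AhR-KO (1.25 ± 0.19, adjusted p = 3.2e-07) and not measurably in WT (0.28 ± 0.21, adjusted p = 0.246), with an interaction of 0.97 ± 0.28 (adjusted p = 0.0157). A weak site 32511 bp from the TSS, past the gene (chr3:65560971-65561454), also had an interaction of 1.2 ± 0.36 (adjusted p = 0.0188), which lost its call without WT unstimulated replicate 1 (0.95, adjusted p = 0.0585). A broad peak was called there in 1 of 6 WT unstimulated libraries only. The genotype effect there with LPS was 0.75 ± 0.23 (adjusted p = 0.00836), and 0.58 with an adjusted p of 0.0466 without AhR-KO LPS replicate 4, short of the fold threshold. The remaining 2 higher DARs, an intron site (chr3:65546778-65546918, 0.68 ± 0.18, adjusted p = 0.00198) and a site past the gene end (chr3:65556786-65558928, 0.64 ± 0.13, adjusted p = 0.000137), were outside the rule for named peaks and were picked after their values were seen. That intron site had a broad peak in 1 of 6 AhR-KO LPS libraries only, so it entered the consensus peaks through that group.

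Cyp1b1 encodes a cytochrome P450 that oxidises steroids and polycyclic hydrocarbons, and all 4 of its peaks were lower DARs with LPS and 3 of 4 without. Neither annotated TSS lay inside a peak, and the nearest peak began 151 bp upstream (chr17:79715212-79716150). It ranged from 9.61 to 14.7 CPM (median 10.5) in WT unstimulated, 5.20 to 6.44 (5.94) in AhR-KO unstimulated, 9.58 to 15.3 (11.3) in WT LPS and 4.93 to 7.67 (5.24) in AhR-KO LPS. The highest AhR-KO library was below the lowest WT library, and the fitted difference was 1.95-fold (-0.96 ± 0.13, adjusted p = 4.21e-07) and 2.04-fold (-1.03 ± 0.13, adjusted p = 5.33e-08). No LPS effect was detected at this site in WT (0.08 ± 0.12, adjusted p = 0.607) or AhR-KO (0.01 ± 0.14, adjusted p = 0.951).

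The weaker Cyp1b1 sites differed in their response to LPS. The site 6168 bp upstream (chr17:79721229-79721614) ranged from 1.49 to 3.01 CPM in WT unstimulated, 0.721 to 1.37 in AhR-KO unstimulated, 0.488 to 1.06 in WT LPS and 0.244 to 0.618 in AhR-KO LPS. It fell with LPS in both genotypes (-1.38 ± 0.21, adjusted p = 3.34e-07, and -1.19 ± 0.24, adjusted p = 4.97e-05) and was lower in AhR-KO in both treatments (-0.91 ± 0.21, adjusted p = 0.000479, and -0.72 ± 0.24, adjusted p = 0.0154). The latter call was lost without WT LPS replicate 2 (-0.59, adjusted p = 0.0543). The site 13342 bp upstream (chr17:79728403-79728827), with 3 to 30 counts per library, was lower in AhR-KO, with log2 fold changes of -1.68 ± 0.36 (adjusted p = 0.000283) without LPS and -1.18 ± 0.33 with it (adjusted p = 0.00382). It had a broad peak in 2 of 6 libraries each of WT unstimulated and WT LPS and in no AhR-KO library. The peak within the gene, 745 bp after the TSS over an exon (chr17:79713356-79714296), did not differ measurably without LPS (-0.14 ± 0.12, adjusted p = 0.383) and was lower in AhR-KO with LPS (-0.61 ± 0.12, adjusted p = 0.000113). That value fell short of the fold threshold without AhR-KO LPS replicate 5 (-0.54, adjusted p = 0.00062) or 6 (-0.54, adjusted p = 0.000702).

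Cyp1a1, a widely used marker of AhR activation in other tissues, was weakly accessible at its promoter in these macrophages. It had 0 DARs among its 5 peaks in the 5 comparisons by edgeR and by DESeq2, while 2 peaks in AhR-KO against WT without LPS, 3 with LPS and 2 in LPS against unstimulated AhR-KO had an unadjusted p under 0.05. Of all peaks, 22.6% without and 26.5% with LPS were genotype DARs by edgeR. LPS DARs were 47.0% in WT and 48.8% in AhR-KO, and interaction DARs 10.4%. Whether 0 of 5 peaks differs from these shares was not tested. Its promoter-side peak (chr9:57696329-57697002, 611 bp before the TSS at 57697613) ranged from 0.991 to 1.75 CPM (median 1.26) in WT unstimulated, and AhR-KO unstimulated from 0.721 to 1.46 (1.004). In WT LPS it ranged from 1.005 to 1.79 (1.25) and in AhR-KO LPS from 0.648 to 1.11 (0.988). The genotypes overlapped in both treatments, with effects of -0.33 ± 0.20 (adjusted p = 0.202) and -0.51 ± 0.19 (adjusted p = 0.0254), and the latter reached the fold threshold without WT LPS replicate 3 (-0.59, adjusted p = 0.00992). Its level per length, 1.95 CPM per kb in WT unstimulated, compares with 12.3 at the Ahrr TSS peak, 12.2 at the Cyp1b1 promoter-side peak and 39.6 at the Tiparp TSS peak. A broad peak was called over it in 2 of 6 libraries each of WT unstimulated and AhR-KO unstimulated, 3 of 6 of WT LPS and 0 of 6 of AhR-KO LPS. The other peak near a Cyp1a1 TSS, 89 bp after the upstream TSS (chr9:57688017-57688679), held 0.858 to 1.18 CPM on average in the 4 groups, with genotype effects of -0.16 ± 0.20 (adjusted p = 0.569) and -0.10 ± 0.19 (adjusted p = 0.719).

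The remaining Cyp1a1 peaks leaned the other way below the fold threshold. The intron peak 880 bp after the TSS (chr9:57698493-57699043) without LPS averaged 3.04 ± 0.424 CPM in WT against 4.20 ± 0.312 in AhR-KO, with no overlap (0.48 ± 0.11, adjusted p = 0.000692). A peak past the gene in the body of Edc3 (chr9:57723063-57723884) was 7.13 ± 1.05 and 9.56 ± 0.534 (0.43 ± 0.09, adjusted p = 0.000391). With LPS the same sites gave 0.23 ± 0.11 (adjusted p = 0.0749) and 0.20 ± 0.09 (adjusted p = 0.0806). For Cyp1a2, which lies next to Cyp1a1 in the opposite orientation, the lone peak (chr9:57659858-57660174) lay 23529 bp from its TSS and nearer to the TSS of Csk, and none lay at its promoter. It averaged 1.36 to 2.03 CPM in the 4 groups, with genotype effects of 0.04 ± 0.15 (adjusted p = 0.881) and -0.38 ± 0.15 (adjusted p = 0.0342).

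Nqo1 and Aldh3a1, a quinone reductase and an aldehyde dehydrogenase, had no promoter DAR of genotype by edgeR. The peak over the Nqo1 TSS (chr8:107402759-107404023) ranged from 16.6 to 21.9 CPM (median 20.2) in WT unstimulated, 16.2 to 18.6 (18) in AhR-KO unstimulated, 14.6 to 21.5 (19.2) in WT LPS and 14.8 to 18.04 (16.2) in AhR-KO LPS. The groups overlapped, and the effects were -0.17 ± 0.08 (adjusted p = 0.0768) and -0.20 ± 0.08 (adjusted p = 0.0301). The 2 Nqo1 genotype DARs of edgeR were weak sites past the gene end. Without LPS, DESeq2 called 0 lower and 1 higher Nqo1 peak. A site 20205 bp from the TSS (chr8:107382384-107383001, 3 to 13 counts without LPS) was lower without LPS (-0.74 ± 0.30, adjusted p = 0.0459), and this call was lost without WT unstimulated replicate 1, 2, 4, 5 or 6, AhR-KO unstimulated replicate 2, 4, 5 or 6, WT LPS replicate 5 or AhR-KO LPS replicate 3 (-0.63 to -0.76, adjusted p 0.05 to 0.104). A site at 31608 bp in the body of Nfat5 (chr8:107371344-107371598) was higher with LPS (1.25 ± 0.30, adjusted p = 0.000787), at 0.435 to 0.892 CPM in AhR-KO LPS and 0.120 to 0.393 in WT LPS. It had a broad peak in 2 of 6 AhR-KO LPS libraries only, and the site at 20205 bp in 4 of 6 WT LPS libraries only. Both sites thus entered the consensus peaks through the group where they were highest, so their direction was partly fixed beforehand.

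At Aldh3a1 the TSS peak (chr11:61207451-61208280) ranged from 1.78 to 2.33 CPM in WT unstimulated, and AhR-KO unstimulated from 2.68 to 3.26, a 1.497-fold difference without overlap that fell just under the fold threshold (0.58 ± 0.14, adjusted p = 0.00122). It passed that threshold without WT unstimulated replicate 3, 5 or 6, AhR-KO unstimulated replicate 1, 3 or 4 or AhR-KO LPS replicate 3 (0.59 to 0.64, adjusted p 0.000888 to 0.00246). With LPS it ranged from 0.978 to 1.52 in WT and spanned 0.892 to 1.66 in AhR-KO (0.01 ± 0.16, adjusted p = 0.957). LPS lowered it in WT (-0.73 ± 0.15, adjusted p = 8.33e-05) and in AhR-KO (-1.29 ± 0.15, adjusted p = 7.05e-10). Without LPS, DESeq2 called 2 higher Aldh3a1 peaks, where edgeR called 1. Both Aldh3a1 genotype DARs of edgeR lay past the gene, in the body of its neighbour Aldh3a2. One (chr11:61225019-61226002) without LPS averaged 1.32 ± 0.166 CPM in WT and 2.46 ± 0.460 in AhR-KO (0.90 ± 0.18, adjusted p = 8.49e-05), and the other (chr11:61223448-61223621) was lower with LPS (-0.83 ± 0.27, adjusted p = 0.0124) but not without WT LPS replicate 3 (-0.54, adjusted p = 0.0978). The latter site had a broad peak in 1 of 6 WT LPS libraries only. It thus entered the consensus peaks through the group where it was highest, so its direction was partly fixed beforehand.

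LPS changed some of these sites in each genotype, though no larger a total share than of all peaks. In WT, 23 of 58 peaks (39.7%) were DARs of LPS against unstimulated, beside 47.0% of all peaks. Of these, 17 were higher (29.3%, beside 25.4%) and 6 lower (10.3%, beside 21.6%). In AhR-KO, 25 of 58 (43.1%) were DARs, beside 48.8%, with 17 higher (29.3%, beside 27.3%) and 8 lower (13.8%, beside 21.5%). Both total shares were below those of all peaks. Ahrr had 8 higher and 1 lower peak in WT and 5 higher and 2 lower in AhR-KO, and Tiparp had 6 higher and 3 lower in WT and 8 higher and 1 lower in AhR-KO. Cyp1a1 and Cyp1a2 had 0 LPS DARs in either genotype by edgeR, where 2 Cyp1a1 peaks and the Cyp1a2 peak were lower with LPS in AhR-KO at an adjusted p of at most 0.05 below the fold threshold (66.2% of all peaks had such a p in that comparison, whatever the fold), and DESeq2 called the Cyp1a2 peak. The Cyp1a2 value, -0.57 ± 0.15 (adjusted p = 0.00109), passed the fold threshold without AhR-KO unstimulated replicate 1, 3 or 6 or AhR-KO LPS replicate 2 or 6 (-0.59 to -0.63, adjusted p 0.00079 to 0.00181).

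The LPS response of Tiparp was spread over its flanks and introns. The peak 4600 bp upstream (chr3:65522505-65523810) rose from 5.94 to 7.68 CPM to 12.97 to 14.2 in WT (0.98 ± 0.09, adjusted p = 3.24e-12) and from 6.10 to 8.02 to 16.9 to 22.8 in AhR-KO (1.41 ± 0.08, adjusted p = 3.77e-17). The rise was larger in AhR-KO by 0.43 ± 0.12 (adjusted p = 0.0131), short of the fold threshold. The intron peak at 22474 bp (chr3:65550934-65551624) fell from 7.53 to 11.2 CPM to 2.999 to 4.54 in WT (-1.28 ± 0.11, adjusted p = 1.09e-12) and from 10.3 to 13.3 to 3.17 to 4.15 in AhR-KO (-1.62 ± 0.11, adjusted p = 5.8e-16). The upstream peak with a genotype effect, 17564 bp from the TSS, rose with LPS in WT (0.99 ± 0.14, adjusted p = 8.7e-08) and AhR-KO (0.62 ± 0.12, adjusted p = 3.01e-05). The AhR-KO value fell short of the fold threshold without AhR-KO unstimulated replicate 4 or 6 or AhR-KO LPS replicate 1 or 2 (0.55 to 0.58, adjusted p 0.000145 to 0.000225). Near Nqo1, the strongest LPS gain in WT lay 22243 bp from its TSS (chr8:107379810-107380963), with 0.353 to 0.931 CPM without and 1.12 to 2.02 with LPS in WT (1.59 ± 0.23, adjusted p = 2.17e-07), and 1.29 ± 0.22 in AhR-KO (adjusted p = 2.45e-06). A broad peak was called there in 4 of 6 WT LPS and 2 of 6 AhR-KO LPS libraries and in no unstimulated library. The site thus entered the consensus peaks through LPS libraries, so the direction of its LPS effects was partly fixed beforehand.

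**Figure D4:**
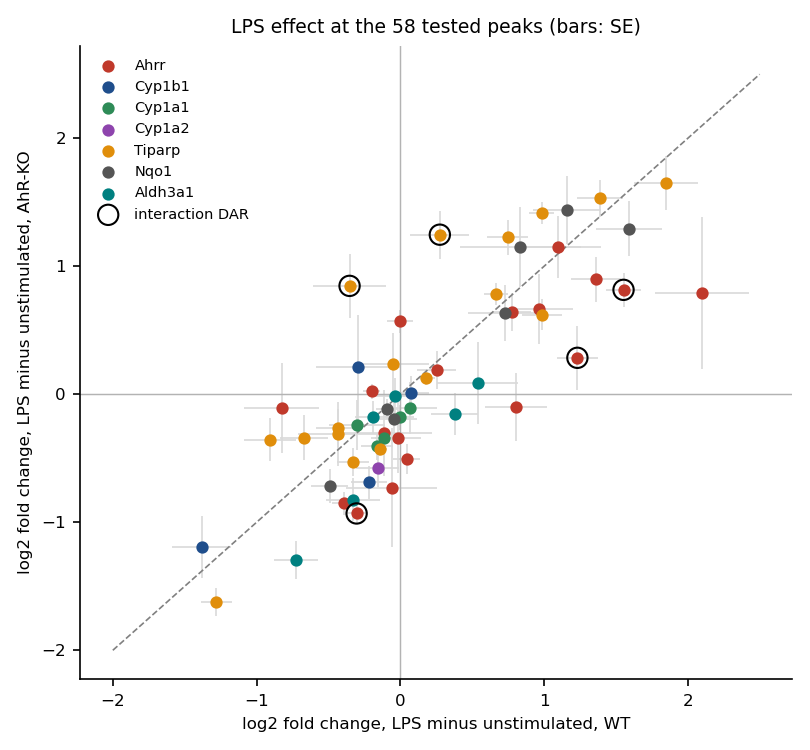
Log2 fold change of LPS against unstimulated in WT (horizontal) and AhR-KO (vertical) at the 58 tested peaks, with standard errors, and the dashed line where both are equal. Circles mark the 5 interaction DARs, of which the 3 Ahrr peaks lie below the line and the 2 Tiparp peaks above it.

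Few sites changed their genotype effect with LPS. Of the 58 peaks, 5 (8.62%) were interaction DARs beside 10.4% of all peaks, namely 3 Ahrr peaks with a more negative genotype effect with LPS (beside 4.58% of all peaks) and 2 Tiparp peaks with a more positive one (beside 5.83%), all described above. At an adjusted p of at most 0.05, whatever the fold, it was 10 peaks (17.2%), beside 15.3% of all peaks. With RLE size factors, and with DESeq2, 5 peaks were lower and 2 higher interaction DARs. Cyp1b1, Cyp1a1, Cyp1a2, Nqo1 and Aldh3a1 had 0 interaction DARs by edgeR, where 2 Aldh3a1 peaks and 1 Cyp1b1 peak had an unadjusted p under 0.05, and DESeq2 called 1 Aldh3a1 peak.

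Sites that were lower in AhR-KO included sites with and without the core motif of AhR and ARNT. GCGTG, searched on both strands, was in 19 of the 58 tested peaks (32.8%), beside 30.4% of all tested peaks, and in 10 (17.2%) within 300 bases around the peak midpoint, beside 16.3%. The longer form TNGCGTG, whose matches are a subset, was in 11 of 58 (19%) beside 7.35%, and in 6.90% beside 2.91% of windows of 300 bases. Of the 13 peaks lower in both treatments, 5 held GCGTG (38.5%) and 8 did not, beside 25.4% with it among all peaks lower in both. The longer form was in 4 of the 13 (30.8%), beside 6.39% of all peaks lower in both and 15.6% of the other 45 member peaks. The most affected sites, 1431 to 4814 bp inside Ahrr and with broad peaks in WT libraries only, held 0. The Tiparp TSS peak held 14 and the Cyp1a1 promoter-side peak 8, of which 5 were of the longer form. Per length, the Tiparp TSS peak had 6.19 sites per kb and the Ahrr TSS peak 3.36, beside 1.96 over all TSS peaks. The Cyp1a1 and Cyp1b1 promoter-side peaks, near a TSS but not over it, had 11.9 and 9.58. All peaks not over a TSS, near or far, had 0.562. GCGTG is also part of the hypoxia response element, and a match is a description, not a bound site. In RefSeq promoters (a window of 300 bases over each start, GRCm38), Ahrr had 3 core sites, Cyp1a1, Cyp1b1 and Tiparp 1 each, and Cyp1a2 and Nqo1 0, where 32.4% of 32851 promoters had at least 1. Aldh3a1 was not in that table.

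**Figure D5:**
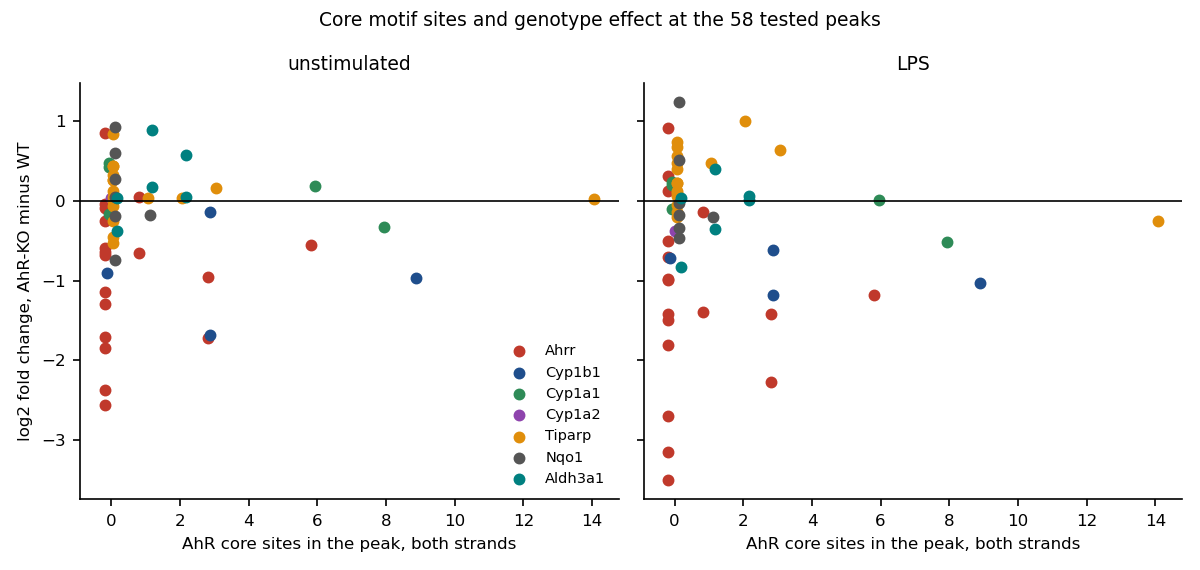
Log2 fold change of AhR-KO against WT without LPS (left) and with LPS (right) against the number of core sites in each of the 58 tested peaks, with points of different genes shifted slightly sideways. The lowest points have 0 sites, and the peak with 14 sites, at the Tiparp TSS, lies near 0.

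Among other genes of the pathway, the partners of AhR, taken as 1 list, had smaller shares of lower and larger shares of higher genotype DARs than all peaks. That difference was not tested, and single genes of the list differed. Peaks of 7 genes of the AhR complex and its partners (Arnt, Arnt2, Ptges3, Hsp90aa1, Hsp90ab1, Ncoa1 and Src) numbered 129 tested, of which AhR-KO without LPS was lower at 5 (3.88%, beside 12.6% of all peaks) and higher at 19 (14.7%, beside 9.95%). With LPS it was lower at 10 (7.75%, beside 13.1%) and higher at 23 (17.8%, beside 13.4%). Of these, 8 lower ones lay at Ncoa1, where they were 25% of its 32 peaks, and 10 higher ones at Src. Ncoa1 and Hsp90aa1 lie on the chromosome of Ahr. Of the 20 tested peaks of Ahr itself, 5 were lower and 9 higher without LPS, while 3 were lower and 12 higher in its presence. The TSS peak of Arnt, the partner of AhR, differed by 0.17 ± 0.06 (adjusted p = 0.0285) and 0.01 ± 0.06 (adjusted p = 0.873), and that of the chaperone gene Hsp90ab1 by 0.43 ± 0.07 (adjusted p = 3.38e-06) and 0.30 ± 0.07 (adjusted p = 0.000257). Of 8 further genes reported to respond to AhR ligands (Ugt1a6a, Gsta1, Cyp2s1, Nfe2l2, Cdkn1b, Bax, Scin and Slc7a5), 13 of 108 peaks were lower without LPS and 11 higher (12% and 10.2%), which is close to the shares of all peaks. With LPS 7 were lower and 9 higher (6.48% and 8.33%), both below the shares of all peaks. Within that list a peak over a TSS of Cyp2s1, another cytochrome P450 gene, fell in AhR-KO in both treatments (chr7:25816519-25816892, -1.27 ± 0.19, adjusted p = 1.45e-06, and -0.94 ± 0.19, adjusted p = 9.69e-05). Scin, which encodes an actin-severing protein and lies on the chromosome of Ahr, had 9 of the 13 lower peaks without LPS and 4 of the 7 with it.

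The pattern of the Ahrr TSS peak over the 24 libraries was closest, among 12917 TSS peaks compared (chromosomes 12 and 13 left out), to those of Spata13 (Pearson r = 0.953), Zdhhc2 (0.952), Gpd2 (0.95), Uck2 (0.947) and Ccnjl (0.946) on log2 CPM. The libraries fell in 4 groups, so r mostly follows the group means and is given as a description. The genotype effects at these peaks were smaller, from -0.17 at Uck2 to -1.14 at Zdhhc2 without LPS and from -0.22 to -1.23 at the same genes with it, beside -1.73 and -2.27 at Ahrr.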

How the data were processed

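ATAC-seq libraries of 24 cultures were used, 6 in each of 4 groups taken from the genotype and treatment labels. The authors aligned reads to mm10 and processed them with the nf-core atacseq pipeline, called broad peaks per library with MACS2, merged them into consensus peaks and counted read pairs with featureCounts 2.0.1. The deposited counts are raw. The deposited broad peak lists give fold enrichment as a ratio and −log10 p and q values per library, and only the fold enrichment was used here. Submitters' processing notes also name bcl2fastq 2.20.0.

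Counts of 174193 peaks that passed filterByExpr were fitted in edgeR 4.0.16 (R 4.3.3) with TMM factors of 0.976 to 1.04, group as the only term and a robust quasi-likelihood test, with Benjamini-Hochberg adjustment over all tested peaks. The study used DESeq2, which served here (1.42.0) as an alternative. CPM values are on the TMM scale, and CPM per kb divides them by peak length. Peak starts in the count table are counted from 0 and were raised by 1. Motifs were searched with Python 3.11.15 and pysam 0.24.0. The fit was tested on simulated data.

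Named peaks were, for each gene, those over a TSS, those with the smallest p in each genotype and LPS comparison, DARs of genotype in both treatments and DARs of the interaction. The members, lists and this rule were chosen with earlier results of these data known. Replicate numbers were not treated as pairs, since in each comparison at least 1 same-numbered pair had a correlation of deviations near or below 0. The correlations were -0.097 to 0.048 between the genotypes without LPS, -0.128 to 0.219 with it, 0.004 to 0.171 over LPS in AhR-KO and 0.037 to 0.29 over LPS in WT, where 4 of 6 libraries correlated best with their own number. Over LPS in AhR-KO it was 3 of 6, and pairing within a genotype was not tested apart. No 2 libraries agreed within sampling noise. Counting intervals are not given, since the spread over 6 libraries includes counting error. Counts over the partners of AhR leave out Ahr itself, which is given apart, and 1 further gene that is not reported here.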

Additional observations from a re-analysis of the deposited data

Results flagged for a closer look

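Among 164 sets of 6 libraries, 11 held a library set apart from the others by Dixon's criterion, which chance gives in about 1 of 20 sets. Among single peaks, AhR-KO unstimulated replicate 2 was highest at the Tiparp TSS (104 CPM, nearest 92.2) and replicate 3 at the Ahrr peak 9288 bp from the TSS (4.43, nearest 3.21). WT unstimulated replicate 1 was highest at the Tiparp site 32511 bp from the TSS (1.65, nearest 0.891), whose interaction call was lost without it. WT LPS replicate 3 was highest at the Aldh3a1 site 14703 bp from the TSS (1.06, nearest 0.51), whose genotype call was lost without it. WT LPS replicate 5 was highest at the Tiparp intron peak at 16078 bp (1.77, nearest 1.32) and lowest at the Ahrr peak at 99213 bp (2.59, nearest 3.23). AhR-KO LPS replicate 5 was highest at the Cyp1a1 peak in Edc3 (9.04, nearest 7.54).

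Among sums over a gene's peaks, WT unstimulated replicate 5, the shallowest library, was highest for Aldh3a1 (13.6 CPM, nearest 11.7). WT unstimulated replicate 6 (23.8, nearest 28.2) and AhR-KO unstimulated replicate 3 (24.4, nearest 26.4) were lowest for Nqo1, and AhR-KO LPS replicate 5 was highest for Cyp1a1 (20.2, nearest 18).

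The genotype effect differed with LPS, by the interaction term of edgeR, at 10 peaks. At Ahrr the difference in log2 fold change was -0.46 at 44046 bp from the TSS (adjusted p = 0.00755), -0.63 at 31205 bp (5.99e-05), -0.74 at 17513 bp (0.00549), -0.95 at 2316 bp (0.0258), -0.55 over the TSS (0.011) and 0.57 at 8779 bp upstream (0.00182). At Tiparp it was 0.43 at 4600 bp upstream (0.0131), -0.29 over the TSS (0.00994), 0.97 at 16078 bp (0.0157) and 1.2 at 32511 bp (0.0188).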

How the results depend on the processing

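Counts of DARs are given in the order lower, higher. Without LPS the 14 and 3 genotype DARs became 8 and 0 at a fold of 2, 7 lower with at least 50 counts in 6 libraries, and 8 higher with no fold threshold or 50 kb flanks, 0 with 5 kb flanks and 5 with RLE size factors or DESeq2. With LPS the 18 and 6 became 9 and 2 with at least 50 counts, and the higher ones 2 at a fold of 2, 11 with no fold threshold, 3 with 5 kb and 13 with 50 kb. For LPS in WT, 6 and 17 became 2 and 9 at a fold of 2, 14 and 29 with 50 kb, 2 and 11 with at least 50 counts, 13 lower with no fold threshold and 10 higher with 5 kb. For LPS in AhR-KO, 8 and 17 became 3 and 9 at a fold of 2, 5 and 8 with 5 kb, 19 and 32 with 50 kb, 14 lower with no fold threshold and 11 higher with at least 50 counts. The 3 and 2 interaction DARs became 0 and 1 at a fold of 2, 6 and 4 with no fold threshold, 5 and 1 with at least 50 counts, 5 lower with RLE or DESeq2 and 1 higher with 5 kb. The share of peaks with GCGTG was 32.8% over whole peaks and 17.2% in 300-base windows. The 5 kb flanks and the filter at 50 counts leave fewer peaks to call, and the cause of these changes was not tested.

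Leaving out each library gave 12 to 16 and 2 to 5 genotype DARs without LPS, 16 to 19 and 4 to 7 with LPS, 5 to 6 and 17 to 19 for LPS in WT, 8 to 10 and 15 to 17 for LPS in AhR-KO, and 3 to 4 and 1 to 3 for the interaction. With the replicate number as a block shared by both genotypes the counts were 13 and 4, 18 and 6, 6 and 17, 8 and 17, and 3 and 2, and at most 4 of 6 numbers correlated best with their own number in any comparison. Of 1067 values of named peaks under other settings 1047 kept their side of the threshold, and of 4070 without 1 library 4015 did, with no called value reversed. The fit of only the 2 groups compared could not be made for the interaction. Sites with under 20 counts per library are the least precise, but calls that 1 library could end also lay at deeper sites, such as the Ahrr peak at 31205 bp with 335 to 1445 counts.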
